A study of Solanum virginianum with 2 samples.

Results

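The homeobox-leucine zipper transcripts predicted as targets of the miR166 family were followed through a small RNA library and a library of RNA 5′ ends (degradome) from eggplant pistils. Members were transcripts paired in the target table with a small RNA named miR165 or miR166. They were also annotated as homeobox-leucine zipper protein, or carried the symbol HOX10 or one starting with ATHB (such as ATHB-8, ATHB-14 or ATHB-15). There were 7 of them among 12937 transcripts in that table, with the symbols ATHB-15, ATHB-8, ATHB-14, HOX10, REV (on a pair of transcripts) and AGO4A. The small RNA side of the pairing held 19 of 686 listed sequences, all named miR166 and 0 named miR165.

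The plants were the long purple line 'B3-3', in which a single plant carries short-styled (S-morph) and long-styled (L-morph) flowers. Each of the 2 libraries mixed pistils of both morphs, from buds 1 to 3 and 3 to 6 days after budding. For the degradome the extraction protocol names 6 samples from phases 1, 2 and 5, where phase 5 covers days 13 to 15. The series title names Solanum melongena and the organism field Solanum virginianum. No library was repeated and no groups were compared, so the values below describe these libraries, and intervals cover counting error only. In such a pool, fewer cells of a type and less RNA per cell cannot be told apart. Transcript levels were not measured, so the pistil label was not checked against marker genes.

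Class III homeobox-leucine zipper proteins are plant transcription factors that set the upper (adaxial) side of lateral organs, keep shoot meristems active and pattern the vascular tissue. In Arabidopsis they also act in the carpel, where the inner and marginal tissue gives rise to placenta and ovules. The microRNA miR166 pairs with their messenger RNA inside the stretch that encodes the START domain and guides an Argonaute protein to cut it, which keeps the factors out of the lower (abaxial) side. The mature miRNA comes from the 3′ arm of its hairpin, and the opposite strand of the duplex comes from the 5′ arm. An Argonaute cut falls opposite bases 10 and 11 of the miRNA, so the 5′ end of the miRNA fixes where the cut is predicted.

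Most miR166 forms paired with a member are shown here, and these differ mainly at their ends. The 23 nt forms, also paired with a member, are not printed. The sequences from sly-MIR166b-p5 on come from the 5′ arm and were paired with no member. Capitals mark the seed, bases 2 to 8 counted from 1 at the 5′ end. The prefix of a name gives the plant of the nearest known miRNA (sly for tomato, nta for tobacco, vvi for grapevine, aly for Arabidopsis lyrata, hpe for a wild sunflower), and L or R codes give bases added to or missing from the 5′ or 3′ end.
nta-miR166a_L+2R-2a: uCUCGGACcaggcuucauucc
sly-miR166a: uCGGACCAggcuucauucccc
vvi-miR166a_R+2: uCGGACCAggcuucauuccuc
vvi-miR166a_1ss19CT: uCGGACCAggcuucauucu
hpe-miR166a_R+4_1ss20CT: uCGGACCAggcuucauuccucgcca
nta-miR166a_L+2R-2b: cGUCGGACcaggcuucauucc
vvi-miR166a_L+1R+1: gUCGGACCaggcuucauuccu
sly-MIR166b-p5: gGAAUGUUgucuggcucgagg
aly-miR166e-5p_L-1R+1_1ss16AT: gAAUGUUGucuggcucgagga
aly-miR166a-5p_L-2R+2: aAUGUUGUcuggcucgaggau

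The most read miR166 form started 2 nt upstream of the tomato miRNA. This form, nta-miR166a_L+2R-2a, had 12244 reads, or 57.9% of the 21147 family reads (57.2 to 58.6%, exact Clopper-Pearson 95% interval). The tomato form sly-miR166a had 4169 reads (19.7%, 19.2 to 20.3%), so the longer-starting form was 2.94 times as frequent. The vvi-miR166a_R+2 form, which differs from the tomato form by the substitution C20U, had 3110 reads (14.7%, 14.2 to 15.2%). Each of the remaining 3′ arm forms had 54 reads or fewer.

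Grouped by where they start, the 3′ arm reads fell into a pair of classes. Of the 19760 reads from the 3′ arm, 12284 began 2 nt upstream of the tomato form (62.2%, 61.5 to 62.8%) and 7464 began at the same base (37.8%, 37.1 to 38.5%). Only 11 reads began 1 nt upstream, and 1 read, named mtr-MIR166f-p5, began 7 nt upstream. The shift changes the seed: the 7 sequences with the tomato start share the seed CGGACCA, whereas the most read form has CUCGGAC. The added bases differed as well, being UC in nta-miR166a_L+2R-2a and CG in nta-miR166a_L+2R-2b (40 reads), while vvi-miR166a_L+1R+1 had a single added G (11 reads). The 7 bases added in mtr-MIR166f-p5 end in UC. Its name gives the 5′ arm, but the sequence holds the core shared by the 3′ arm forms and was counted with them.

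At the 3′ end the forms with the tomato start divided between both bases at position 20. Among those of 20 nt or more, 4214 of 7421 reads had the tomato base (56.8%, 55.6 to 57.9%) and 3207 carried C20U (43.2%, 42.1 to 44.4%). Length varied little, with 7279 of the 7464 reads at 21 nt (97.5%). The 19 nt form, which has the substitution C19U, had 43 reads, and the 23, 24 and 25 nt forms had 96, 3 and 43.

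The 5′ arm of the hairpin was represented by 8 sequences with 1387 reads, or 6.56% of the family (6.23 to 6.90%), against 93.4% from the 3′ arm. Its most read form, sly-MIR166b-p5, had 1059 reads. Starts 1 nt and 2 nt further downstream had 151 reads (aly-miR166e-5p_L-1R+1_1ss16AT) and 26 reads (aly-miR166a-5p_L-2R+2). Among the 5′ arm reads, 87.2% kept the start of sly-MIR166b-p5 (85.4 to 89.0%). The most frequent start of the 5′ arm was thus that of the listed tomato name, unlike that of the 3′ arm.

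**Figure D1:**
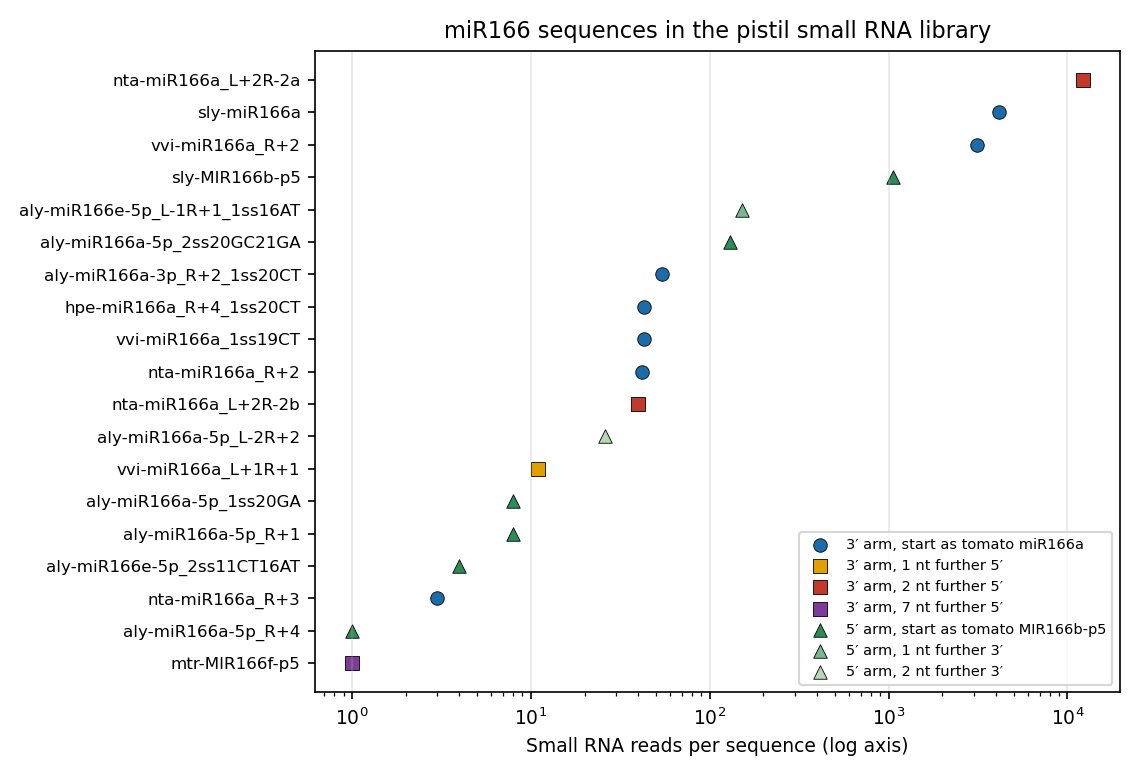
Reads of each of the 19 miR166 sequences in the small RNA library, on a log axis, with the marker giving the hairpin arm and the 5′ start. The form that starts 2 nt upstream of tomato miR166a leads with 12244 reads, followed by both 21 nt forms with the tomato start (4169 and 3110) and the leading 5′ arm form (1059).

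Forms with an added 5′ base were less frequent in other families. Names carrying the code L+ held 58.1% of miR166 reads (57.5 to 58.8%), in 3 of 19 sequences. Of those 12295 reads, 12244 belonged to nta-miR166a_L+2R-2a, so the share rests almost wholly on 1 sequence. Among the other 318 named sequences, 24 had the code and held 5.97% of their 110009 reads (5.84 to 6.12%). Of those 6573 reads, 5202 belonged to nta-miR2911_L+3, a name known to match ribosomal RNA. The code depends on which known miRNA the authors chose as reference, so these shares describe names as well as ends, and with 1 library the difference was not tested.

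Pairs with the homeobox-leucine zipper transcripts are predicted from sequence, so the forms with most reads need not be those with most pairs. Of the 19 sequences, 9 were paired with a member, all from the 3′ arm. The most read form was paired with ATHB-15 alone, at an alignment score of 4, which is the highest score in the table and marks the poorest match listed. Its less frequent relative nta-miR166a_L+2R-2b was likewise paired with ATHB-15 alone at 4. The tomato form was paired with 6 of the 7 members, at a score of 2.5 on ATHB-15, 3 on ATHB-8, ATHB-14, HOX10 and a REV transcript (Sme2.5_04752.1_g00001.1), and 4 on AGO4A. The vvi-miR166a_R+2 form had the same scores on these 6 transcripts.

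The 19 nt form, with 43 reads, was paired with all 7 members and had the lowest scores. They were 1 on ATHB-15, 1.5 on ATHB-8, ATHB-14, HOX10 and both REV transcripts, and 2.5 on AGO4A. On each of the 6 transcripts it shared with the tomato form, its score was 1.5 lower. It is also the shortest form. The forms of 23 nt were each paired with ATHB-15 alone at 4, and the 25 nt form with the other REV transcript (Sme2.5_06806.1_g00006.1) at 4. The form starting 1 nt upstream, vvi-miR166a_L+1R+1, was paired with 6 members at scores from 3 to 4, which were 0 to 0.5 above those of the tomato form.

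Weighted by reads, the members therefore differed in how much miR166 was listed against them. The 8 forms paired with ATHB-15 held 19713 reads, 93.2% of the family. The 4 forms paired with each of ATHB-8, ATHB-14, HOX10, AGO4A and REV Sme2.5_04752.1_g00001.1 held 7333 reads (34.7%). The pair of forms listed for REV Sme2.5_06806.1_g00006.1 held 86 reads (0.407%). Pairs are listed only at scores up to 4, and these shares do not measure binding.

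**Figure D2:**
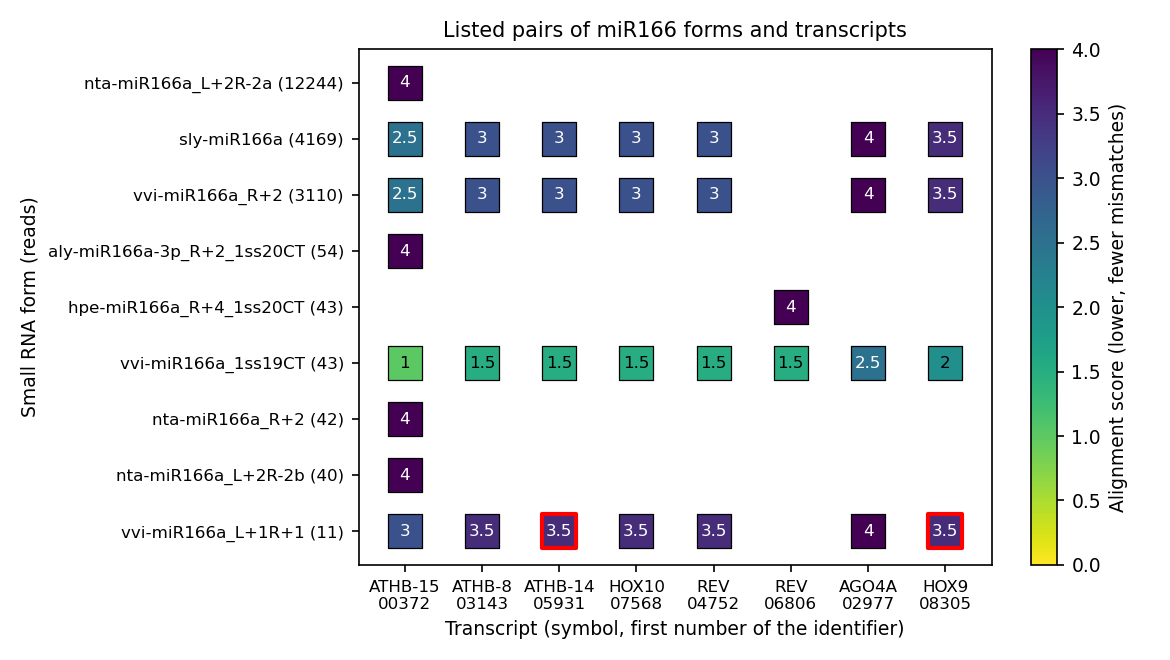
Alignment score of each listed pair of a miR166 form (rows, reads in brackets, most read at the top) and a transcript (columns), with lower scores for fewer mismatches and a red frame where the pair had no degradome read. The most read form has a single square, at ATHB-15 with a score of 4, while the 19 nt form with 43 reads has a square at every transcript, with scores from 1 to 2.5. HOX9 is shown beside the 7 members.

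All 7 members had degradome reads, where 5.15% of all predicted transcripts did. These shares were not matched for score. Each member had a best score of 2.5 or lower, whereas all predicted transcripts include those listed at scores up to 4. The only other miR166 transcripts at 2.5 or lower, RPL5 and HOX9, also had reads. By pair, 29 of 30 were detected (96.7%), where 5.38% of all predicted pairs were. No interval is given for this share, since pairs that predict the same cut rest on the same reads. In each of the 29 the 5′ end of the captured RNA lay opposite base 10 of the small RNA, where it did in 91.4% of all detected pairs, since positions are listed only at predicted cuts. The 29 pairs came down to 13 positions on the 7 transcripts, since several forms predict the same cut. At the position set by the tomato start, raw reads ranged from 5 to 14 per transcript. The median over all 825 detected positions in the table was 1 raw read. That median also covers lesser positions of a transcript, and of all 13 member positions 4 had 1 raw read. Raw reads may also be shared between transcripts, as described below.

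ATHB-15, whose Arabidopsis counterpart CORONA acts in the shoot meristem and vascular tissue, had 14 raw reads at nucleotide 550 of Sme2.5_00372.1_g00009.1. ATHB-8, a gene of procambium and xylem formation in Arabidopsis, also had 14 raw reads, at nucleotide 568 of Sme2.5_03143.1_g00001.1. Both had 4.67 normalized reads, a column read here as raw reads divided over the places that they match. On that reading each of the 14 reads matched 3 places on average, and whether the equal values of both transcripts come from the same reads cannot be told from the table.

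ATHB-14, which corresponds to PHABULOSA, an Arabidopsis gene of adaxial identity, had 8 raw reads and 8 normalized reads at nucleotide 565 of Sme2.5_05931.1_g00001.1. It was the only member position whose reads were not shared: 12 of the 13 member positions had fewer normalized than raw reads, as did 38.7% of all detected positions. By raw reads ATHB-14 stood below ATHB-15 and ATHB-8, and by normalized reads it stood above both. The order of the leading transcripts therefore depended on the column used.

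The remaining members had lower values. REV, named for REVOLUTA, an Arabidopsis gene of meristem, polarity and vascular patterning, had 6 raw and 1.58 normalized reads at nucleotide 571 of Sme2.5_04752.1_g00001.1. Its second transcript, Sme2.5_06806.1_g00006.1, had 5 raw and 1.25 normalized reads at nucleotide 94. HOX10, named after a class III gene of rice, had 5 raw and 1.25 normalized reads at nucleotide 925 of Sme2.5_07568.1_g00001.1. The transcript with the symbol AGO4A (Sme2.5_02977.1_g00006.1) had 6 raw and 1.58 normalized reads at nucleotide 1294, the same values as REV Sme2.5_04752.1_g00001.1. Its symbol names an Argonaute and its annotation a homeobox-leucine zipper protein, and which is right could not be told; without it there were 6 detected members and 11 positions.

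These values fell into 4 distinct combinations over 7 transcripts. ATHB-15 and ATHB-8 shared the first, ATHB-14 alone had the second, AGO4A and REV Sme2.5_04752.1_g00001.1 shared the third, and HOX10 and REV Sme2.5_06806.1_g00006.1 shared the fourth. The third combination, 6 raw and 1.58 normalized reads, equals the sum of the values of HOX10 and of HOX9, a further transcript with 1 raw and 0.333 normalized reads. The raw reads of the 7 positions add up to 58 and the normalized reads to 23. The raw sum counts a shared read once for each transcript, and which reads were shared between which transcripts cannot be read from the table.

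**Figure D3:**
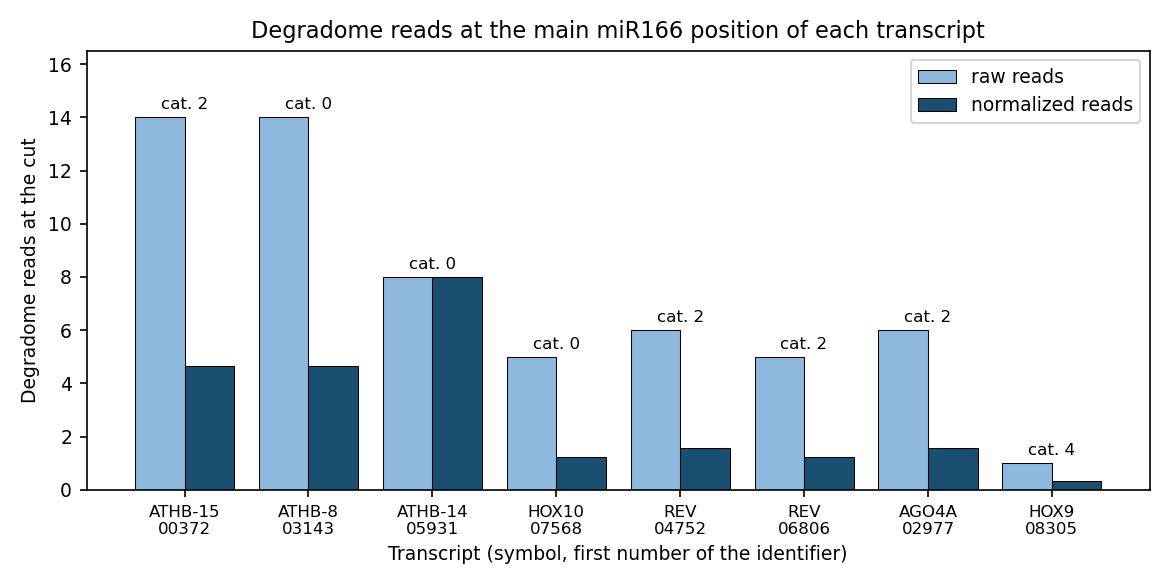
Raw and normalized degradome reads at the position set by the tomato miR166a start, for the 7 members and HOX9, with the authors' category above each pair of bars. ATHB-15 and ATHB-8 lead by raw reads with 14 each, and ATHB-14, the only transcript with equal bars, leads by normalized reads with 8.

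The category assigned by the authors, from 0 for the strongest signal on a transcript to 4 for a single read, separated members with equal reads. Category 0 was given to 3 of the 7 members, ATHB-8, ATHB-14 and HOX10, where it was given to 6.01% of all detected transcripts. The other 4, ATHB-15, AGO4A and both REV transcripts, were in category 2. ATHB-15 and ATHB-8 thus differed in category at 14 raw reads each, and HOX10 and REV Sme2.5_06806.1_g00006.1 differed at 5 raw reads each. By convention category 2 means that another position of the same transcript had more reads, and no position with more reads was listed for these 4.

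The p-values that the authors deposited were at most 0.05 for 9 of the 29 detected member pairs. Of all detected pairs, 12.3% had such a p-value. The 9 member pairs rest on 3 of the 13 member positions, on 3 transcripts, so they are not independent. All 9 were in category 0, at 0.00667 for the tomato and vvi-miR166a_R+2 forms and 0.0111 for the 19 nt form, in the authors' deposited table. For the same 14 reads on ATHB-15 they ran from 0.0699 to 0.126 in the authors' deposited table, depending on the form. At REV Sme2.5_04752.1_g00001.1 the authors' deposited table gave 0.311 and 0.463. The lower-scoring 19 nt form had the higher p on each of these transcripts.

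Cuts predicted from the shifted starts had few reads. On ATHB-15, raw reads were 14 at nucleotide 550, 3 at nucleotide 551 and 1 at nucleotide 552, with 4.67, 1.00 and 0.333 normalized reads. Nucleotide 552 is the cut predicted for the most read form, nta-miR166a_L+2R-2a, and nucleotide 550 lies opposite base 12 of that form. The position with the most degradome reads was thus the one predicted by forms holding 35.1% of the family reads, and the position predicted by forms holding 58.1% had a single read. On ATHB-8 the reads were 14 at nucleotide 568 and 3 at nucleotide 569. AGO4A, REV Sme2.5_04752.1_g00001.1 and HOX10 each had 1 raw read and 0.25 normalized reads 1 nt downstream of their leading position.

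ATHB-14 had no read 1 nt downstream, where vvi-miR166a_L+1R+1 was also paired with it, and this was the only undetected member pair. Over the 7 members, the position set by the tomato start held 23 normalized reads, or 88.2% of those listed. The next nucleotide held 2.75 (10.5%) over 5 transcripts and the one after it 0.333 (1.28%) on ATHB-15. A position is listed only where a form is predicted to cut there, so reads at other neighbouring nucleotides were not seen.

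Outside the homeobox-leucine zipper transcripts, miR166 forms were paired with 39 transcripts, of which 2 had degradome reads (5.13%, 0.627 to 17.3%). Of the 39, 18 were listed for the 19 nt form and 16 for the 5′ arm. The best score was 4 for 29 of them, and 3 or less for 5. One of the detected pair was HOX9 (Sme2.5_08305.1_g00002.1), named after a class III gene of rice but annotated as prolyl oligopeptidase. Neither its annotation nor its symbol met the member rule. HOX9 was paired with the same 4 forms as ATHB-8 and HOX10, at scores from 2 to 3.5. It had 1 raw read at nucleotide 358 in category 4.

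The other was RPL5 (Sme2.5_01952.1_g00004.1), which encodes a protein of the large ribosomal subunit and was paired with forms of the 5′ arm. It had 11 raw reads at nucleotide 704, the cut predicted for sly-MIR166b-p5. At nucleotides 703 and 702, predicted for the forms starting 1 nt and 2 nt further downstream, it had 14 and 21 raw reads. All were unshared, and all were in category 2 with p-values from 0.0983 to 0.252 in the authors' deposited table. The form with 1059 small RNA reads thus pointed to the position with the fewest degradome reads, and the form with 26 to the position with the most.

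The spread over neighbouring nucleotides differed between RPL5 and the members in these values. Of the normalized reads listed on RPL5, 45.7% lay at nucleotide 702, 30.4% at nucleotide 703 and 23.9% at nucleotide 704, whereas 88.2% of those on the members lay at a single nucleotide per transcript. These shares depend partly on which cuts were predicted. Among the members only ATHB-15 had reads listed at 3 positions, with 4.67, 1.00 and 0.333 normalized reads. REV Sme2.5_06806.1_g00006.1 had a single predicted cut, so all its listed reads lay there. With 1 library the difference between RPL5 and the members was not tested. The transcript with the most 5′ arm forms against it, hflX (a GTP-binding protein; Sme2.5_05994.1_g00001.1), was paired with 7 forms at scores down to 3 and had no degradome read.

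**Figure D4:**
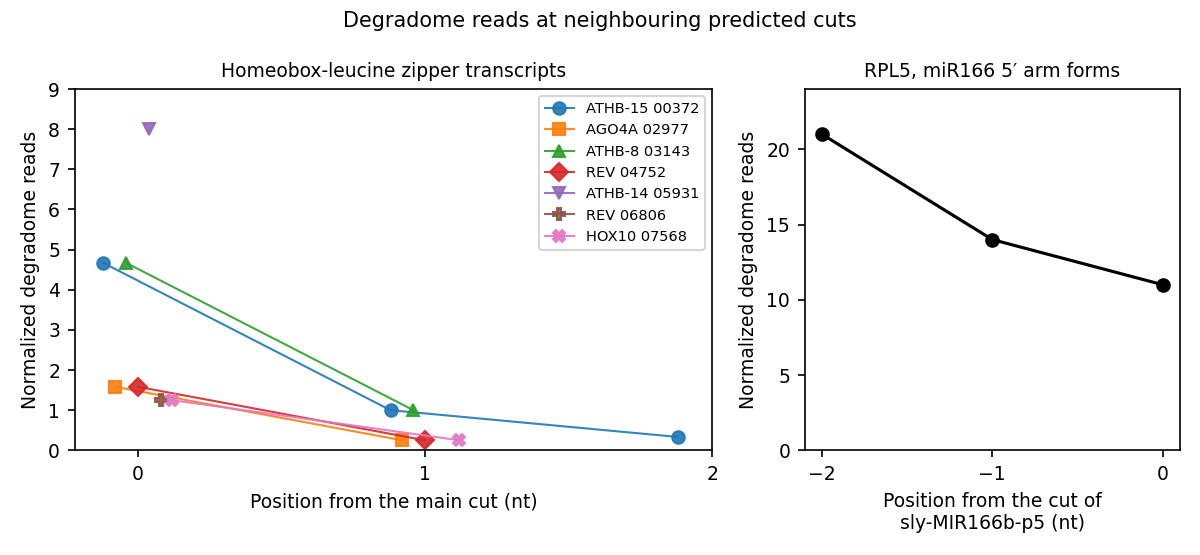
Normalized degradome reads at neighbouring nucleotides where a miR166 form predicts a cut, on the 7 members (left, 0 being the position set by the tomato start, points set slightly apart sideways) and on RPL5 (right, 0 being the cut of sly-MIR166b-p5). Member values drop from at most 8 at 0 to at most 1 at the next nucleotide, while RPL5 has 21, 14 and 11 over 3 successive nucleotides.

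Homeobox-leucine zipper transcripts without a miR166 pair made up 21 of the 28 in the table, and 4 of them had reads, where 5.15% of all predicted transcripts did. ATHB-13 had 2 raw reads for a miR172 form, HDG1 had 2 for a miR160 form, HAT5 had 2 for a miR2118 form and HAT22 had 1 for a MIR414 form. Their p-values in the authors' deposited table ran from 0.353 to 1, and none was in category 0. A second ATHB-14 transcript (Sme2.5_03297.1_g00007.1) and a second HOX10 transcript (Sme2.5_15567.1_g00001.1) were listed for MIR414 alone, without reads. The only other small RNA paired with a member was that MIR414 form on HOX10, also without reads. Among the 21, those with the symbols AGO4, ALF5 and At4g27190 were counted by annotation, although these symbols do not name homeobox genes. None of them had reads.

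Genes that act with class III factors in organ polarity, in meristems or in the small RNA pathway were looked up in the same table. The 3 groups had 19 listed transcripts, and 6 of them had degradome reads, where 5.15% of all predicted transcripts did. These transcripts were paired with other small RNAs than miR166. Among polarity genes 1 of 4 was detected, YAB1, an abaxial YABBY gene, with 3 raw reads at a p of 1 in the authors' deposited table. KAN1, YAB2 and ARF4, all of abaxial identity in Arabidopsis, were listed without reads. In the small RNA pathway 4 of 13 were detected. These 13 were taken by symbol. Those with the symbol AGO4 or AGO4A had no reads, and their annotation was primary-amine oxidase or missing, not argonaute. DCL1, the Dicer that makes miRNAs, had 20 raw reads in category 0 for miR162, and AGO1B, of the Argonaute type that carries most miRNAs, had 8 in category 2 for miR168. The p-values in the authors' deposited table were 0.0013 for DCL1 and 0.089 for AGO1B. Both SGS3 transcripts with reads, of the trans-acting siRNA pathway, had 5 raw and 2.5 normalized reads in category 2. They were listed for an unnamed small RNA, each at 0.686 in the authors' deposited table. Whether their equal values come from the same reads cannot be told. Of the meristem homeobox genes, KN1 had 1 raw read in category 4 and WOX9 had none.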

How the data were processed

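Per the labels' protocols, small RNAs were prepared with an Illumina TruSeq kit and degradome ends by the German et al. method. The trimming, target and category programs and the genome build are not given in the sources used here. Per the file headers, the deposited small RNA table gives read counts per named sequence, and the degradome table gives raw read counts at each predicted cut. The deposited normalized reads and the TPB column are signal values. The authors' alignment score, category from 0 to 4 and p-value were used as deposited, the p-value as unadjusted. TPB was 105.324 per normalized read, which, if scaled to 1e+09, implies 9494500 reads. The small RNA table held 135737 reads, of which miR166 names had 21147 (15.6%, 15.4 to 15.8%).

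Starts were placed by finding the shared core of each arm. The main position was the cut listed for the 19 nt form. Intervals of shares are exact Clopper-Pearson 95% intervals, and the share of member pairs detected was given none because the pairs are not independent. No test was run, since each assay had 1 library. The 7 members, the lists and the genes named by role were chosen with earlier results of these data known. Named items were all members, the forms paired with them or with most reads, and other detected transcripts. Items named outside this rule include list genes without reads, the second ATHB-14 and HOX10 transcripts, mtr-MIR166f-p5 and hflX. The last, hflX, was chosen after its values were seen. Name matching, placing and intervals were tested on simulated data. Intervals came from SciPy 1.17.1 under Python 3.11.15, tables from pandas 2.3.3 and plots from matplotlib 3.10.9.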

Additional observations from a re-analysis of the deposited data

How the results depend on the processing

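Of 54 alternative values, 36 stayed within the 95% interval of the reported share or within 1.5 times the reported count, and 18 did not. The miR166 share of listed reads was 19.9% without the names miR2911, miR2916, miR1310 and miR6300, 16.1% among sequences of known family and 19.04% among those of 20 to 22 nt. Within the 3′ arm the most read sequence held 62.0% and the most read start 62.2%, and with each sequence counted 1 time that start held 10.5%. With the authors' p at most 0.05, detected members fell to 3, their positions to 3, detected other transcripts to 0% and detected genes of the whole list of 48 from 18 to 4. With unshared reads only, 1 member, 1 position and 1 member in category 0 were left, and the highest raw count was 8, as it was with normalized reads. Positions numbered 7 at scores of at most 2.5, and 7 when those within 2 nt were joined. At scores of at most 2.5, 100% of other transcripts were detected, these being RPL5 and HOX9, the only ones left. Counting HOX9 as a member, a choice made after seeing the data, gave 8 detected members. The share of other transcripts detected has a wide interval: it was 2.56% in categories 0 to 2, with unshared reads or with 2 or more raw reads, 2.63% with HOX9 as a member and 7.50% without AGO4A as a member, also a choice made after seeing the data. Positions numbered 9 in categories 0 to 2 and with 2 or more raw reads.

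No paired analysis was possible because each assay had 1 library. Depth limits the degradome values, as 4 of the 13 member positions rest on 1 raw read.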
